A study of Homo sapiens with 3 samples.

Results

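Stable Set8b was set against wild-type Set8b in U2OS, a human osteosarcoma cell line. The comparison takes 2 of the 3 arrays of the study, the array of cells given Set8_deltaPIP2 and the array of cells given Wt-Set8b. Both proteins were delivered by retrovirus, in the pMSCV vector, and cells were harvested 5 days after transduction. Set8_deltaPIP2 is the form of Set8b that resists destruction by the CRL4-Cdt2 ubiquitin ligase, and Wt-Set8b is the form the ligase can destroy. The remaining array, of cells given the empty pMSCV virus, is quoted beside the others as the level without added Set8b. All 3 cultures were of the same line in the same medium and all were transduced, and the labels name no clone. Each construct had 1 array, so differences stand without a replicate check and carry no p-value. How precise the values are is limited by the number of arrays.

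Set8 (gene KMT5A) monomethylates histone H4 at lysine 20. CRL4-Cdt2 recognises a short PCNA-binding stretch, the PIP degron, in a protein held on PCNA at a replication fork or a repair site, and marks that protein for the proteasome. Set8 is removed this way in S phase and after DNA damage, together with the licensing factor Cdt1 and the CDK inhibitor p21, and returns in G2 and mitosis. U2OS cells keep a working p53 pathway, which switches on CDKN1A and other genes when DNA is damaged. The comparison asks what changes in gene expression when overexpressed Set8b can no longer be removed, with a Set8b construct on both sides. Whether both constructs were expressed alike was not checked, so loss of degradation and amount of transcript cannot be told apart.

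Of 54613 probe sets that are not controls, 41091 named 1 gene. Those with a mean log2 signal at or above their median, a signal of 51.4, were kept, and the brightest probe set stood for each of 11783 genes. The probe set just inside this limit read VPS13B (53.5, 44.6 and 56.9) and the one just outside read NOCT (47.3, 54.9 and 52.3). Signals are quantile-normalized intensities and are always given in the order stable Set8b, wild-type Set8b, vector. Differences are log2 values of stable minus wild-type Set8b, and a called gene is one at least 2-fold higher or lower. A signal below 50 lies near the limit and may be background, so a difference against such a signal is given with that side set to 50, as at least that value for a higher gene and at most that value for a lower one. Ranges over the probe sets of a gene are given with signals below 50 set to 50.

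Most genes read alike on both arrays. Of 11783 genes, 8574 (72.8%) lay within 1.5-fold, and the median difference was -0.02. At least 2-fold higher with stable Set8b were 524 genes, 4.45% of those compared, and 566 were at least 2-fold lower, 4.80%. These shares are the background for every count of called genes in a list below. With signals below 50 set to 50, the counts were 486 and 511. On that scale 76 genes were at least 4-fold higher against 23 lower, and 9 were at least 8-fold higher against 0 lower. The gene just past 2-fold higher was SYNE4 (117, 58.4 and 62.6), and CDC7, at signals of 308, 617 and 622, was just short of 2-fold lower. In a bulk culture, fewer cells in a phase of the cycle and less RNA per cell cannot be told apart, which touches every cell cycle gene below.

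The arrays differed in some controls. The 18 hybridisation spike-in probe sets read, at the median, 0.784 times the wild-type value on the stable array as deposited, against 1.06 times for 24 poly-A spike-in probe sets, which report RNA added before labelling. Over the vector array the poly-A spike-ins read 0.467 with stable and 0.441 with wild-type Set8b. The ratio of the 3′ to the 5′ control probe set of ACTB, a measure of RNA integrity, was 7.3 on the stable array, 7.6 on the wild-type array and 8.0 on the vector array. For GAPDH it was 1.02, 1.12 and 1.03. The part of these controls in the results was not tested. Summed over 9 mesenchymal and bone markers, the signal was 43854, 32129 and 34854. VIM (13006, 11123 and 12786), SPARC (7644, 5773 and 6617) and COL1A1 (12894, 8855 and 10739.9) were bright, RUNX2, a transcription factor of bone, was lowest on the stable array (539.7, 894 and 831), ALPL was dim (91.8, 46.2 and 37.7), and COL1A2 lay below the limit on every array. CDKN2A also lay below it, at 42.1, 38.5 and 41.0. Summed over 13 leukocyte markers with a probe set, the signal was 536, 544 and 453, and 2 of them, CD3D and CD79A, passed the limit. The epithelial sum over 11 markers was 10869, 9940 and 8882, nearly all of it from KRT8 and KRT18. Of the others EPCAM read 169, 425 and 431 and was called lower, and CLDN7 and KRT19 were at the lowest value of each array. The endothelial sum over 8 markers was 319, 297 and 206. The part of these markers in the results was not tested.

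**Figure D1:**
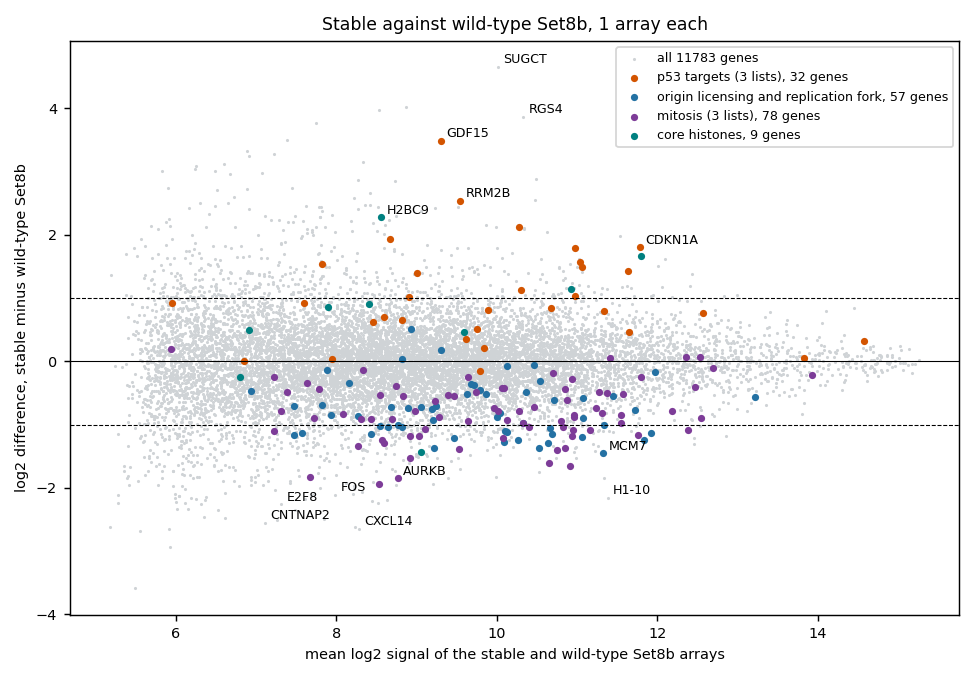
Log2 difference of stable minus wild-type Set8b (vertical) against the mean log2 signal of the 2 arrays (horizontal) for 11783 genes, with coloured points for p53 targets, replication, mitosis and core histone genes and dashed lines at 2-fold. The p53 targets lie mostly above 0, the replication and mitosis genes mostly below it, and SUGCT is the highest labelled gene at 4.65.

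KMT5A itself read lower with the stable than with the wild-type form in all 4 of its probe sets, from -1.08 to -0.06. Its brightest probe set, 228443_s_at, read 252, 532 and 428, lowest on the stable array, a difference of -1.08. Probe set 220200_s_at read 243, 304 and 130.0, a difference of -0.33, with both Set8b arrays above the vector. The dimmer 225118_at (148, 159 and 114) and 225094_at (139, 145 and 128) differed by -0.10 and -0.06. Their positions in the transduced construct were not analysed here, and they check neither the labels nor the amount of Set8b protein. The other enzymes of H4K20 methylation differed little: KMT5B, which adds further methyl groups, was at -0.34 and KMT5C at 0.11. Of 13 genes listed as writers, erasers and readers of this mark, 11 lay below 0 and 3 were called lower. These were KMT5A, the condensin II subunit NCAPD3 (181, 423 and 458) and the origin recognition subunit ORC1 (128, 282 and 291). NCAPG2, a partner of NCAPD3 in condensin II, was at -0.76. The demethylases PHF2 and PHF8 were at -0.54 and 0.12. Among readers of the mark TP53BP1, which binds it at DNA breaks, was at -0.17, the chromatin compactor L3MBTL1 at -0.28, L3MBTL2 at -0.14, L3MBTL3 at -0.25 and MBTD1 at -0.04.

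None of the 6 genes of the CRL4-Cdt2 ligase and its PCNA platform was called. DTL, which encodes Cdt2, was lowest, its 2 probe sets at -0.76 and -1.29, the adaptor DDB1 was at -0.47, the RING subunit RBX1 at -0.23, the scaffold CUL4B at -0.12 and PCNA at -0.17. CUL4A was at 0.53, but its 4 probe sets ranged from -0.34 to 0.53. Transcripts of the substrates parted. CDKN1A, which encodes p21, read 6589.9, 1891 and 1052, highest on the stable array and lowest on the vector array, 3.48-fold higher with stable than with wild-type Set8b. CDT1 read 453, 759.6 and 1195 by its brightest probe set (-0.75) and 111, 291 and 218 by the other (-1.39). The remaining substrates were not called: POLD4 was at 0.50, TDG at 0.37, FBH1 at -0.19 and ERCC5 at -0.47.

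**Figure D2:**
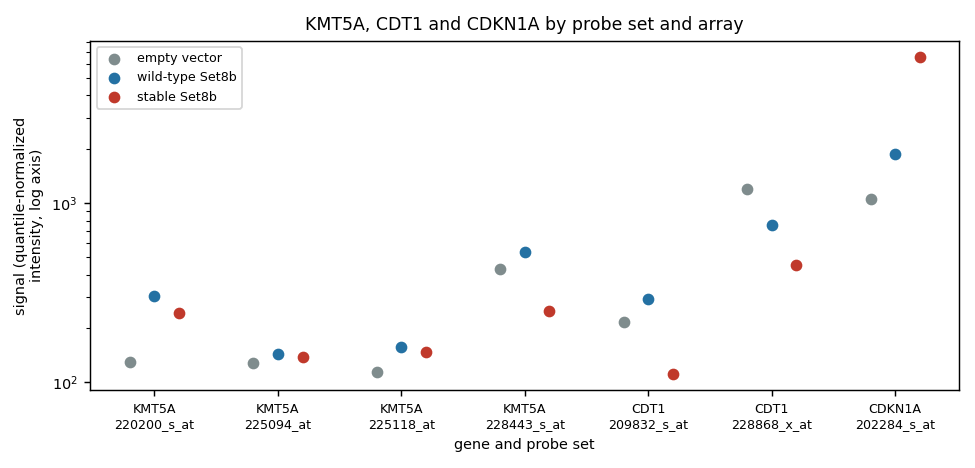
Signal (vertical, log axis) of each probe set of KMT5A, CDT1 and CDKN1A (horizontal), with 1 point for each of the 3 arrays. For CDKN1A the order from high to low is stable Set8b, wild-type Set8b, vector, while wild-type Set8b is the highest array in all 4 probe sets of KMT5A.

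The 20 genes that stood highest with stable Set8b were ranked with each side raised to a signal of at least 50, leaving out genes whose probe sets disagreed in direction or whose chosen probe set ends in _x_at. In all 20 the stable array was the highest of the 3, which the ranking against wild-type Set8b largely fixes. In 17 the wild-type and vector signals lay within 2-fold of each other. For ODAPH, DSP and CCDC30 both of these signals lay below 50 and may be background. SUGCT, a mitochondrial coenzyme A transferase, ranked highest and read 5183, 206 and 92.5, 25.2-fold higher with stable than with wild-type Set8b. The long noncoding RNAs LINC00520 (1879.8, 116 and 91.3) and CCDST (1475, 93.7 and 96.2) ranked next. RGS4, which damps G protein signalling, followed at 4889.5, 337 and 282 with 3 probe sets from 2.23 to 3.86, and then CCDC148 at 793, 58.4 and 56.9. In these 5 genes the wild-type and vector signals lay within 2.23-fold of each other.

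ACTA2, smooth muscle actin, read 963, 108 and 88.5, 8.92-fold higher. DSP, the desmosome protein desmoplakin, read 375, 37.5 and 22.8, at least 2.91 on the log2 scale. RND3, a small GTPase, read 3443, 589 and 639.5, and VGLL3, a partner of TEAD transcription factors, 864, 137 and 268. The protease inhibitors SERPINB7 (371, 39.2 and 77.6) and SPINK6 (286, 32.9 and 65.5) were at least 2.89 and 2.52 higher. Also among the 20 were EBI3, a subunit of interleukins 27 and 35 (at least 2.92), the enamel phosphoprotein ODAPH (at least 3.49), the secretory granule chaperone SCG5 (2.84), the immune receptor SLAMF7 (2.74), the phosphatase PTPRR (2.47), the cilium gene CFAP58 (2.89), CCDC30 (at least 2.61) and the p53 target RRM2B (2.53). For AOX1, aldehyde oxidase, wild-type Set8b was the lowest array (834, 115 and 263).

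In all of the 20 lowest genes the stable array was the lowest of the 3, which the ranking again largely fixes. In 18 the wild-type and vector signals lay within 2-fold of each other. E2F8, a repressor of the E2F family, read 72.6, 348 and 535, 4.80-fold lower than with wild-type Set8b. NEIL3, a DNA glycosylase of S phase cells, read 156, 656 and 456, the linker histone H1-10 read 1264, 5623 and 4574, and TCF19 read 143, 610.3 and 623. CNTNAP2, a neurexin-like adhesion protein, read 56.9, 335 and 246, with all 4 of its probe sets between -2.56 and -1.52. The dynein chain DYNC1I1 read 97.0, 543 and 421, and the growth cone protein GAP43 read 41.0, 209 and 206, at most -2.06 on the log2 scale. The epithelial sodium channel subunit SCNN1A (185, 849 and 514) and the sodium pump regulator FXYD6 (162, 748 and 544) were higher with wild-type Set8b than with the vector. SOX2, a transcription factor of stem cells, read 64.2, 366 and 303 by 228038_at, a difference of -2.51, and its other probe set past the limit was at -0.18. CXCL14, the lowest of the 20, FOS and FGF21 are described with other genes below. The remaining genes were CRISPLD1 (-2.35), TMT1A (-2.23), MN1 (-2.17), YPEL1 (-2.12), the orphan receptor GPR19 (-2.10), MNS1 (-2.02) and the antisense transcript ZNF143-AS1 (-2.03).

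**Figure D3:**
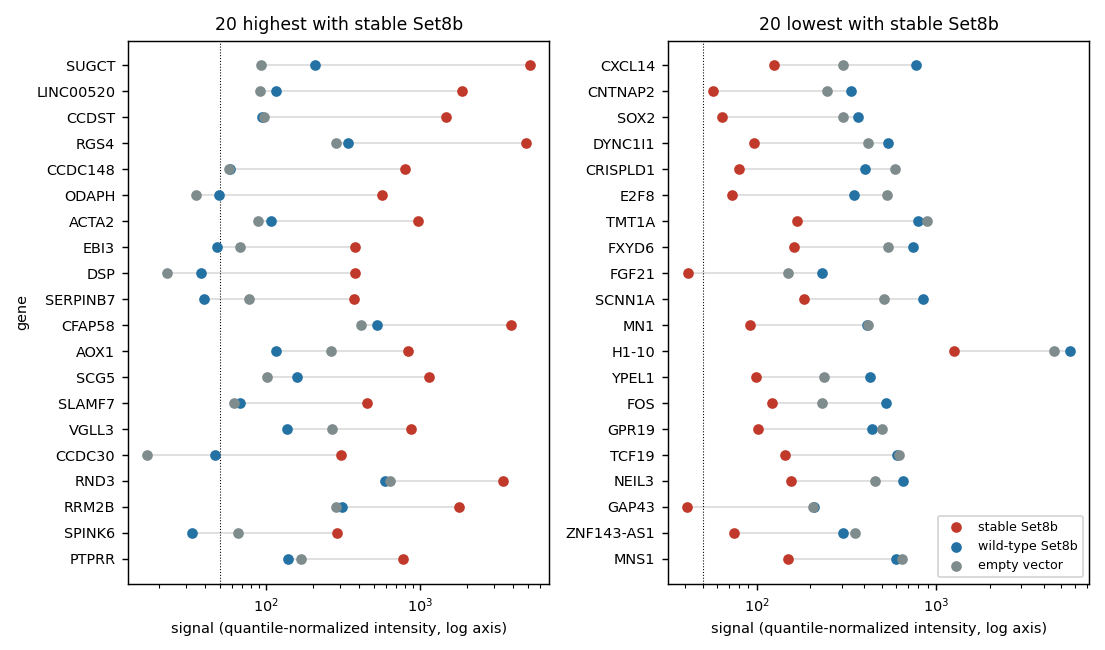
Signal (horizontal, log axis) of the 20 highest and the 20 lowest genes (vertical) of stable against wild-type Set8b, with a coloured point for each of the 3 arrays and a dotted line at a signal of 50. The stable point lies at the end of every row, which the ranking largely fixes. The wild-type and vector points lie within 2-fold of each other in 17 rows of the highest and 18 of the lowest genes.

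In a further set of genes it was wild-type Set8b that stood apart from both other arrays. The chemokine CXCL14 read 124, 779.6 and 305 and was 6.27-fold lower with stable than with wild-type Set8b, with its 2 probe sets past the limit at -2.65 and -2.75. FOS, an immediate early transcription factor, read 122, 528 and 230.5. Other growth-factor-induced transcripts were also highest with wild-type Set8b: IER2 read 2377, 4840.3 and 3093, EGR1 2136, 3623 and 1994, JUN 4041, 5229 and 3435, and the Notch target HES1 1378, 2558 and 1646. For EGR1, JUN and HES1 the stable array was nearer to the vector than to wild-type Set8b. Of 19 immediate early genes 10 lay above 0, with 1 called higher, MAFF (2449, 939 and 588), and 2 called lower, FOS and IER2, against 4.45% and 4.80% of all genes. EGR1, JUN and HES1 were chosen after their values were seen. The BMP-family ligand GDF7 (50.5, 168 and 68.8), the CDK4 inhibitor CDKN2D (65.4, 138 and 68.5) and the noncoding RNA MIAT (143, 393 and 172) were likewise highest with wild-type Set8b, although 2 of the 4 MIAT probe sets were at -0.15 and -0.17. The dim genes ADAM11, MMP15 and C11orf96 were at most -1.43, -1.47 and -1.10.

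The reverse order, with wild-type Set8b lowest, was seen for AOX1 and for mostly dim genes. The platelet collagen receptor GP6 read 164, 53.9 and 206, the synaptic gene RIMS2 553, 168 and 357 and the antisense transcript TMEM147-AS1 459, 168 and 554. FNDC4 read 151, 61.6 and 129 and ZNF485 135, 65.1 and 139. PDGFRB, a receptor for platelet-derived growth factor, read 109, 24.7 and 110.0, at least 1.12 higher than with wild-type Set8b, and TBKBP1 read 139, 40.7 and 140.0, at least 1.47. Except in AOX1 and RIMS2, the stable array lay within 1.5-fold of the vector.

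Many p53 targets were higher with stable than with wild-type Set8b. In 3 lists by function, 6 of 11 genes of arrest and feedback, 2 of 11 of cell death and 6 of 10 of repair and metabolism were called higher, against 4.45% of all genes, and 0 were called lower in any of them. Their medians were 1.39, 0.52 and 1.07, against -0.02 over all genes. ZMAT3, an RNA-binding protein, read 2586, 596 and 512, with 5 probe sets from 1.18 to 2.12. MDM2, the ligase that destroys p53, read 3621, 1226 and 1361, with the wild-type array slightly below the vector. TIGAR, which redirects glucose from glycolysis, read 3754, 1083 and 1195, and SESN1, a brake on mTORC1, 385, 132 and 114. GADD45A read 5219.8, 1937 and 1902 and the kinase PLK2 3595, 1278 and 1588. The cytokine GDF15 read 2122, 189.6 and 72.6, 11.2-fold higher, by a probe set ending in _x_at that may read related transcripts.

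Within the death list 9 of 11 genes lay above 0, with a median of 0.52. FAS, a death receptor, read 793, 208 and 187, with 3 probe sets from 1.93 to 2.07, and the receptor TNFRSF10B read 2866, 1406 and 1019, with 4 from 0.20 to 1.24. Of the mitochondrial pathway, BAX was at 0.20 and PMAIP1, the lowest of the list, at -0.16. BAX read 982, 853 and 491, so both Set8b arrays were above the vector. In the BCL2 family 1 of 14 genes was called higher, the survival gene BCL2L1 (1533, 750.4 and 703), and 1 lower, the BH3-only gene BMF (54.2, 120.3 and 87.7). The family median was -0.02.

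Genes of mitosis were mostly below their wild-type level with stable Set8b. Of 13 mitotic kinesins all lay below 0 and 6 were called lower, against 4.80% of all genes, with a median of -0.93. KIF22, a chromosome-arm motor, read 287, 823 and 877, KIF15 194, 491 and 521, and KIF11, which pushes spindle poles apart, 247, 607 and 884. Of 39 kinetochore and spindle checkpoint genes 37 lay below 0 and 14 were called, with a median of -0.89. The NDC80 complex members SPC24 (189, 722 and 739) and SPC25 (1085, 3399.7 and 4117) were among the lowest, with SGO1, which protects centromeric cohesion, at -1.83 by the brighter of its 2 probe sets and -0.83 by the other. CENPM, of the inner kinetochore, was at -1.60.

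Of 26 mitotic kinase and cytokinesis genes 24 lay below 0 and 4 were called, with a median of -0.62. AURKB, the kinase of the chromosomal passenger complex, read 229, 827 and 832, nearly the same with wild-type Set8b as with the vector, and ESPL1, separase, read 1060.3, 2786 and 2581. CDC25C was at -1.19 and PBK at -1.09. Among 20 condensin and cohesin genes 19 lay below 0 and 5 were called. The condensin ATPase SMC2 read 308, 859.8 and 1035, NCAPG 535, 1260.4 and 1369, and the cohesin acetyltransferase ESCO2 26.4, 91.6 and 127. With its dim side at 50, ESCO2 was at -0.87, under 2-fold.

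Replication genes also lay mostly below 0. Of 19 genes of origin licensing 18 lay below 0 and 10 were called, with a median of -1.01, and of 38 replication fork genes 36 lay below 0 and 11 were called, with a median of -0.73. In the MCM helicase, MCM7 read 1547, 4246 and 4849, MCM4 798, 1889.7 and 1858, MCM2 1412, 3221 and 3578, MCM5 1110.1, 2462 and 2389.7 and MCM6 2621, 5751 and 7032. For all 5 the wild-type signal lay within 1.22-fold of the vector, and the stable signal was 0.364 to 0.456 of the wild-type signal. The clamp loader subunit RFC4 (919, 2368 and 2728) was the lowest of the fork genes, and the checkpoint adaptor CLSPN was at -1.17. The primase PRIM1 read 1022, 2500.4 and 2839 and the flap endonuclease FEN1 2367, 5633 and 5862. In dNTP supply 3 of 10 genes were called lower, RRM2 (4898, 11132 and 11538), TK1 (1586, 3486 and 3184) and DTYMK (1746, 3738 and 3772). RRM2B, the p53-induced partner of RRM1, belongs to the p53 lists and was higher.

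The regulators upstream parted. E2F2 read 416, 1347 and 1357 and FOXM1, which drives genes of G2, 1274, 3249 and 3161, both lower, whereas E2F1 was at -0.55. The pocket protein RBL1 read 63.3, 134 and 135. The cyclins CCND1 (2913, 1051 and 939) and CCND2 (10455, 5101 and 6238) were higher with stable Set8b. CCNE2 (113, 247 and 325) and CDC25A (352, 747 and 952) were lower. Of 11 G1 and S cyclins and CDKs 3 lay above 0 and 8 below. In that list 2 were called higher and 2 lower, against 4.45% and 4.80% of all genes. CCND2 was under 2-fold with values as deposited (0.90). CDK6 was at 0.71. Among CDK inhibitors CDKN1A was the only gene above 0 of 5 that passed the limit, and CDKN1B, which encodes p27, read 743, 1757 and 2466. CCND2 and TIGAR are neighbours in the RefSeq gene order, and with PARP11 they formed a run of 3 adjacent compared genes called higher, although the 3 probe sets of PARP11 ranged from -1.02 to 1.22. ITFG2, FOXM1 and RHNO1 formed a run of 3 called lower. Other runs of 3 lay on chromosomes 1, 15, 16, 18 and 19. How many would arise from the share of called genes alone was not tested.

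Short promoter motifs were spread unevenly over these lists. The CHR element TTTGAA, searched on both strands in 250 bases before and 50 after the start of a gene, was held by 69.2% of 13 mitotic kinesin promoters, 45.2% of 31 kinetochore promoters and 0 of 17 licensing promoters, against 9.86% of 9628 compared genes with a sequence and 15.4% of all 27305 promoters. Any of 4 E2F octamers (TTTGGCGC, TTTCCCGC, TTTGCCGC, TTTCGCGC, both strands) was held by 47.1% of licensing and 40.6% of 32 fork promoters, against 7.69% of the kinesins, 5.53% of compared genes and 3.33% of all promoters. Among genes called lower, 16.8% held TTTGAA and 10.4% an E2F octamer, and among those called higher 11.6% and 2.78%. The members with the lowest differences whose motif lies within 150 bases before the start are shown over those 150 bases, from RefSeq GRCh38.p14, so that the place of the letters can be seen. Capitals mark TTTGAA or its reverse complement in the mitotic genes ESPL1 (chr12:53268149-53268298, plus strand), KIF15 (chr3:44761644-44761793, plus strand) and KIF11 (chr10:92592980-92593129, plus strand).
ESPL1: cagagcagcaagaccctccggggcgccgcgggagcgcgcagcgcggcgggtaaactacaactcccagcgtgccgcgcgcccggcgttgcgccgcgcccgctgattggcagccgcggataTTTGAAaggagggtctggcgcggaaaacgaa
KIF15: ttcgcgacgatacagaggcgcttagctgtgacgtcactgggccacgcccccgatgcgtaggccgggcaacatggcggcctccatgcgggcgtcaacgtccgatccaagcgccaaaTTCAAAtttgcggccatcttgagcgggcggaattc
KIF11: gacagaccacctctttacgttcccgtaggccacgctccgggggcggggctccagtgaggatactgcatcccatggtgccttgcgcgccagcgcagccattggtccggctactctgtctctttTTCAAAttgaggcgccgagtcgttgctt
In each of these 3 the letters begin 28 to 35 bases before the start. KIF15 also holds an E2F octamer, the lower-case gcgccaaa directly before its capitals, which is TTTGGCGC on the other strand. Capitals mark an E2F octamer in the replication genes MCM7 (chr7:100101398-100101547, minus strand), GINS2 (chr16:85688955-85689104, minus strand) and POLA1 (chrX:24693768-24693917, plus strand).
MCM7: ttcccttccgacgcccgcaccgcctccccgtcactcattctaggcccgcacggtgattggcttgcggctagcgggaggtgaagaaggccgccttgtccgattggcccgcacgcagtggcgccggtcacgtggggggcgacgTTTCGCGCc
GINS2: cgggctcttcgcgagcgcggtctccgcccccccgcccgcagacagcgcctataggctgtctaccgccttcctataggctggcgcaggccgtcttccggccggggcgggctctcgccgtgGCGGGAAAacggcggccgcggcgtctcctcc
POLA1: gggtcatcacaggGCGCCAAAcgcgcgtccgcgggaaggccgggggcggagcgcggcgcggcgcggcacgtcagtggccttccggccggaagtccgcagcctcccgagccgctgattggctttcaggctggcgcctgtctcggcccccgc
A match is a run of letters and not a measured binding site. GINS2 was at -1.27, POLA1 at -1.14 and KIF15 at -1.34.

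**Figure D4:**
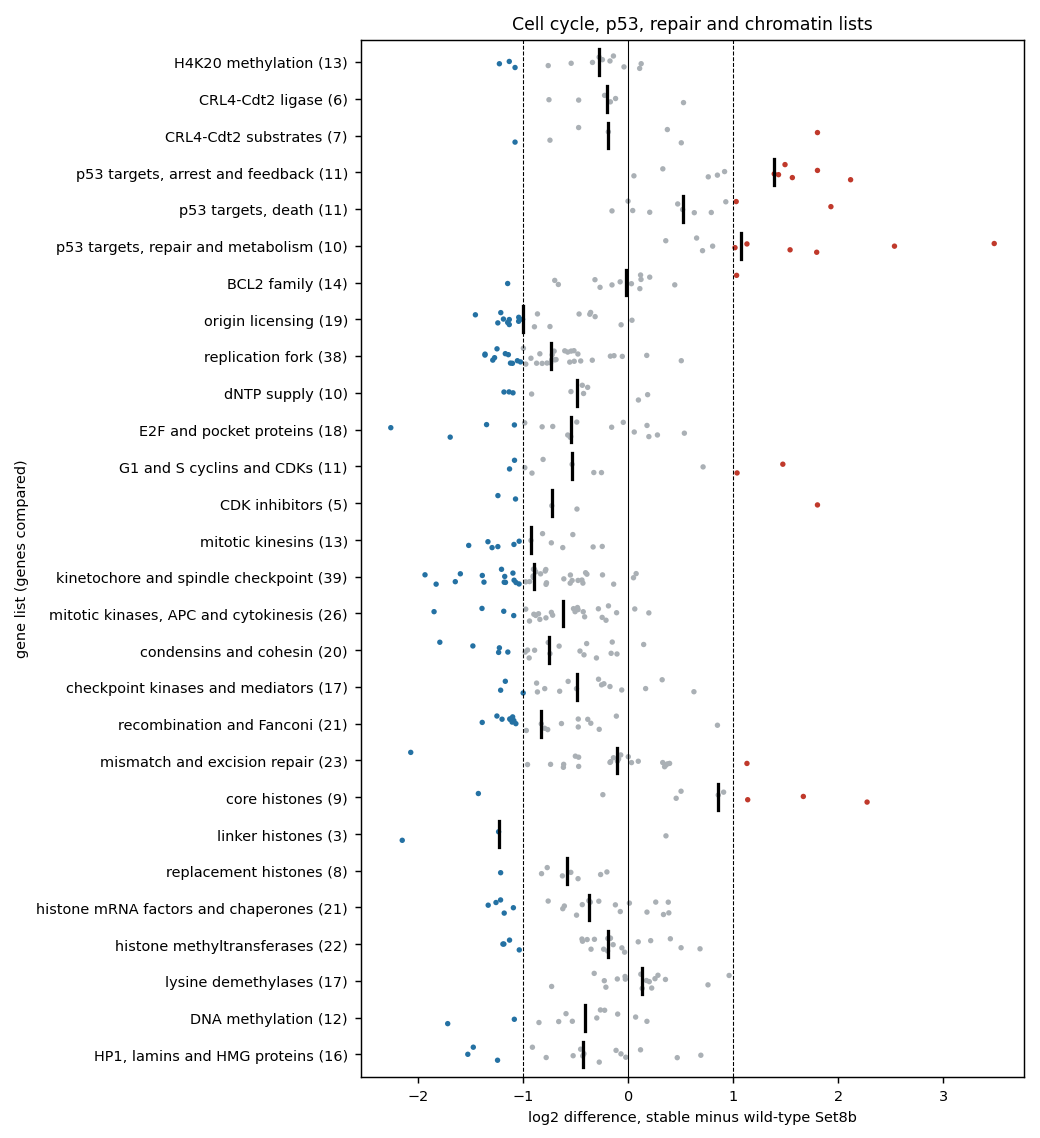
Log2 difference of stable minus wild-type Set8b (horizontal) for each compared gene of the cell cycle, p53, repair and chromatin lists (vertical, number of genes in brackets), red at least 2-fold higher, blue at least 2-fold lower, black bar the list median, dashed lines at 2-fold. All 13 mitotic kinesins lie below 0 and all 11 p53 targets of arrest and feedback lie above it.

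Genes of homologous recombination were mostly below their wild-type level, and those of excision repair lay near 0. Of 21 recombination and Fanconi genes 20 lay below 0 and 9 were called lower, with a median of -0.83. RAD54L, a recombination motor, read 199, 522 and 505, and the Fanconi ubiquitin enzyme UBE2T 2232, 4792 and 4715. The 2 probe sets of BRCA1 gave -1.25 and 0.05, so its direction is not settled. The 23 genes of mismatch and excision repair had a median of -0.10, with NEIL3 called lower and the p53 target DDB2 (1866, 853 and 743) called higher. Of the checkpoint kinases, CHEK1 was at -0.65, WEE1 at -0.87 and ATR at 0.62.

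Chromatin genes moved in both directions. Of 36 core histone genes on the array 9 passed the limit, 3 were called higher and 1 lower, with a median of 0.86. That median depended on the probe sets: it was 0.08 without those ending in _x_at or _s_at and 0.02 over all 36 genes. H2BC12 read 6316, 1989.7 and 2165, H2BC9 829, 171 and 206 and H2BC5 2889.7, 1314 and 806, while H4C11 read 323, 870.0 and 599.7. The probe sets of H2BC9, H2BC5 and H4C11 end in _x_at and may read several histone genes. Whether the histone signals come from transcripts with or without a poly-A tail was not analysed here, so they do not give total histone mRNA. The 8 replacement histones all lay below 0, with H2AX (3681, 8552 and 8278) called and H2AZ2 at -0.83. Chaperones that place new histones behind the fork were lower, ASF1B at signals of 359.7, 907 and 742 and the CAF-1 subunit CHAF1A at 312, 747 and 638, among 5 of 21 genes of histone mRNA and chaperones called lower and 0 higher.

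Replication-dependent histone promoters carry a TATA box and CCAAT boxes close to the start, shown here for the H2B genes called higher with TATAAA within 150 bases before the start. Of the 9 core histone promoters 77.8% held TATAAA and 77.8% CCAAT, on either strand, against 5.32% and 36.6% of compared genes and 3264 and 9747 of all 27305 promoters. Capitals mark both motifs in H2BC12 (chr6:27146859-27147008, minus strand) and H2BC5 (chr6:26157971-26158120, plus strand).
H2BC12: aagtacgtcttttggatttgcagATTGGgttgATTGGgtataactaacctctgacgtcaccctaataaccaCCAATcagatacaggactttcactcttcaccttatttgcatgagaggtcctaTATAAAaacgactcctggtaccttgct
H2BC5: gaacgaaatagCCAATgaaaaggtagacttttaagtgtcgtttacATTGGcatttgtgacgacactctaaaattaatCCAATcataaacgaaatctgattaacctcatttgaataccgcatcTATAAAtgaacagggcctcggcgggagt
TATAAA begins 27 bases before the start in H2BC12 and 28 in H2BC5. Over all genes called higher, 12.2% held TATAAA, against 6.35% of those called lower and 5.32% of compared genes. Among all 27305 promoters the share was 11.95%, close to that of the genes called higher.

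Writers and structural proteins of chromatin were lower in part. Among 22 histone methyltransferase genes EZH2 (316, 724 and 858), SUV39H1 (385, 876 and 819), EHMT2 (155, 339 and 402) and NSD2 (1336, 2745 and 2859) were called lower and 0 higher, with a list median of -0.20. DNMT1, which copies DNA methylation, read 1694, 3596 and 3477, and TET1, which oxidises it, 58.7, 194 and 208. Of the nuclear lamina, TMPO read 1008, 2908 and 2987 and LMNB1, lamin B1, 615, 1458 and 886. LMNB1 was higher with wild-type Set8b than with the vector, so its difference exceeds that of stable Set8b from the vector. HMGB3 was at -1.48. No lysine demethylase of 17 was called, and KDM5B was highest at 0.96.

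Contractile and YAP-responsive genes lay mostly above 0. Of 16 contractile genes 13 lay above 0 and 5 were called: ACTA2, MYLK (2115, 643 and 771), TAGLN (2164, 826 and 689), CNN1 (319, 152 and 104) and TPM2 (11714, 5691 and 5821). TPM2 was under 2-fold with values as deposited (0.87), and TAGLN without probe sets ending in _x_at or _s_at (0.53). The heavy chain MYH10 was at -0.68 by its brightest probe set, 0.01 by the other. All 12 matricellular and YAP target genes lay above 0 with a median of 0.46, and 3 were called, ANKRD1 (1231, 386 and 329.5), THBS1 (2622, 858 and 822) and CCN3 (949, 313 and 277). Without probe sets ending in _x_at or _s_at THBS1 was at 0.70. CCN2 read 5751, 2961 and 2611, just short of 2-fold.

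The CArG box, the site of serum response factor (CC, 6 bases of A or T, GG), was held by 3 of 14 contractile promoters, against 1.09% of compared genes and 1.29% of all promoters. Within 150 bases of the start it is seen in MYLK (chr3:123620549-123620698, minus strand) and CNN2 (chr19:1026458-1026607, plus strand), where capitals mark it.
MYLK: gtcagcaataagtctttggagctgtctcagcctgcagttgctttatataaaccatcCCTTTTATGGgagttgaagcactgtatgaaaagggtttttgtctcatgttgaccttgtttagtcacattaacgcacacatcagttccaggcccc
CNN2: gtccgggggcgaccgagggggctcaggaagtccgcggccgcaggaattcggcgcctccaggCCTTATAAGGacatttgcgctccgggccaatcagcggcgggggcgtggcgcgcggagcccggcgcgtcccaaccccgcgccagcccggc
CNN2 itself was at -0.35, while MYLK was called higher. The part of the CArG box in these differences was not tested.

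Collagens and other matrix genes lay mostly above 0. Of 24 collagen chains 18 lay above 0, 8 were called higher and 2 lower, with a median of 0.58. COL11A1, of fibril nucleation, read 3426, 1215 and 939.9, COL27A1 1104, 436 and 334 and COL6A3 2965, 1331 and 998, while COL3A1 read 696, 1505 and 1706. COL5A1 was at 1.53, with 3 probe sets from 0.61 to 1.75. CD44, the hyaluronan receptor, read 3208, 782 and 717, with 9 probe sets past the limit from 1.51 to 3.13. The laminin chain LAMA1 read 1349, 389 and 416 and the collagen-binding integrin ITGA2 448, 134 and 149. ITGB4, of hemidesmosomes, read 27.7, 92.5 and 116, under 2-fold lower with the dim side at 50 (-0.89). The mesenchymal repressor SNAI2 read 951, 194 and 169.9, the osteoblast cadherin CDH11 367, 156 and 149.7, and fibronectin, FN1, 7339, 3789 and 2515. Among keratins KRT20 read 234, 35.8 and 25.4, at least 2.22.

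Secreted signals parted by gene rather than by family. Of 7 chemokines past the limit CXCL8 (at least 3.22), CCL20 (513, 99.2 and 61.1) and CCL2 (6893, 2438 and 1675) were called higher, and CXCL14 lower. CXCL8 read 466, 48.1 and 19.7 by an _x_at probe set. Of 26 interleukin and receptor genes 6 were called higher and 1 lower, against 4.45% and 4.80% of all genes. The lower one, IL1RL1, is under 2-fold with the dim side at 50 (-0.58). IL18 read 5909, 1490.4 and 1873, the receptor chains IL4R 467, 199 and 178 and IL7R 879, 436 and 447, and IL1RAP 152, 74.5 and 103. The 2 probe sets of IL11 disagreed, at 2.43 and -0.28. Of the TGF-beta superfamily the activin chain INHBA read 3020.2, 1277 and 1056, higher, and BMP4 234, 779 and 812 and TGFB3 99.1, 256 and 214, lower. IGFBP7, which binds insulin-like growth factors, read 2115, 486 and 324. Of 22 metalloproteases and inhibitors 3 were called higher and 3 lower, against 4.45% and 4.80% of all genes. The stromelysin MMP3 read 155, 23.3 and 62.1, at least 1.63, and the procollagen peptidase ADAMTS2 44.1, 133 and 106, at most -1.42.

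The NF-kB list held 3 of 12 genes called higher and 0 lower: the coactivator NFKBIZ (1782, 662 and 561), the subunit RELB (341, 161 and 118) and the inhibitor NFKBIE (355, 176 and 134). TNFAIP3 was at 0.99 by its brightest probe set, 1.23 by the other, and NFKBIA at -0.42. The interferon response list had a median of 0.05, with RIGI (232, 103 and 123) called higher and IFIT1 (73.9, 213 and 325) and IFIH1 (51.1, 105 and 107) lower. The motif TGANTCA of AP-1, on both strands, was held by 9.62% of promoters of genes called higher and 2.49% of those called lower, against 4.55% of compared genes and 7.76% of all promoters. The highest genes with it within 150 bases of the start, apart from those read by an _x_at probe set or with probe sets that disagreed, were ODAPH and EBI3, where capitals mark it.
ODAPH (chr4:75555916-75556065, plus strand): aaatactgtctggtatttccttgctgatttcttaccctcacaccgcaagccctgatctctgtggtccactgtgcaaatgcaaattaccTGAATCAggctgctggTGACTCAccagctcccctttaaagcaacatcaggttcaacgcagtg
EBI3 (chr19:4229373-4229522, plus strand): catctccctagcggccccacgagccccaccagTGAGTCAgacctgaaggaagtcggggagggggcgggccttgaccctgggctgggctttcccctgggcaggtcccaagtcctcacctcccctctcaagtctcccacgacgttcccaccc

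Genes of ERK feedback lay mostly above 0. Of 16 genes of ERK feedback 15 lay above 0, with a median of 0.48, and 3 were called, the phosphatases DUSP1 (1907, 550.5 and 479) and DUSP2 (563, 234 and 232) and CCND1. Other ERK-induced members were under 2-fold, SPHK1 at 0.80, ETV5 at 0.53 and EPHA2 at 0.67. Among ligands of EGF receptors TGFA read 204, 99.0 and 78.7 and HBEGF 1398, 770.1 and 551. NRG1 was at 2.59 by its brightest probe set, -0.66 by the other. The receptor ERBB3 read 181, 679 and 714, lower, while EGFR was at 0.48. Of 14 compared FGF ligands and receptors 8 lay below 0, with a median of -0.17. In this list 1 was called higher and 2 lower, against 4.45% and 4.80% of all genes. Of the RGS family, besides RGS4, RGS5 was at 2.22 with 3 probe sets from 0.36 to 2.22, and RGS7 read 1888, 611 and 729. Without probe sets ending in _x_at or _s_at RGS7 was at 0.50.

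Wnt pathway genes lay on the lower side. Of 22 compared 15 lay below 0, with a median of -0.34. Called lower were 5 and higher 0, against 4.80% and 4.45% of all genes. The feedback genes RNF43 (99.2, 347 and 305) and AXIN2 (133, 374 and 322) and the receptors FZD2 (310.3, 1052 and 1026) and FZD7 (243, 530.1 and 484) were called. FZD3 was called by its brightest probe set, at -1.01, while its 4 probe sets reached 0.42. The ligand WNT10B was at 0.89. In the Notch list HES6 read 47.4, 201 and 163, at most -2.01. Of 11 ephrins and receptors, with a median of -0.50, 2 were called lower and 0 higher, against 4.80% and 4.45% of all genes. EFNA2 read 137, 477 and 439 and the receptor EPHB3 38.9, 118 and 66.0, at most -1.24. Of 23 potassium channel genes 4 were called higher and 0 lower, against 4.45% and 4.80% of all genes. The calcium-activated KCNMA1 (189, 84.9 and 114) was among those called higher. The channel median was 0.20, and -0.03 without probe sets ending in _x_at or _s_at.

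**Figure D5:**
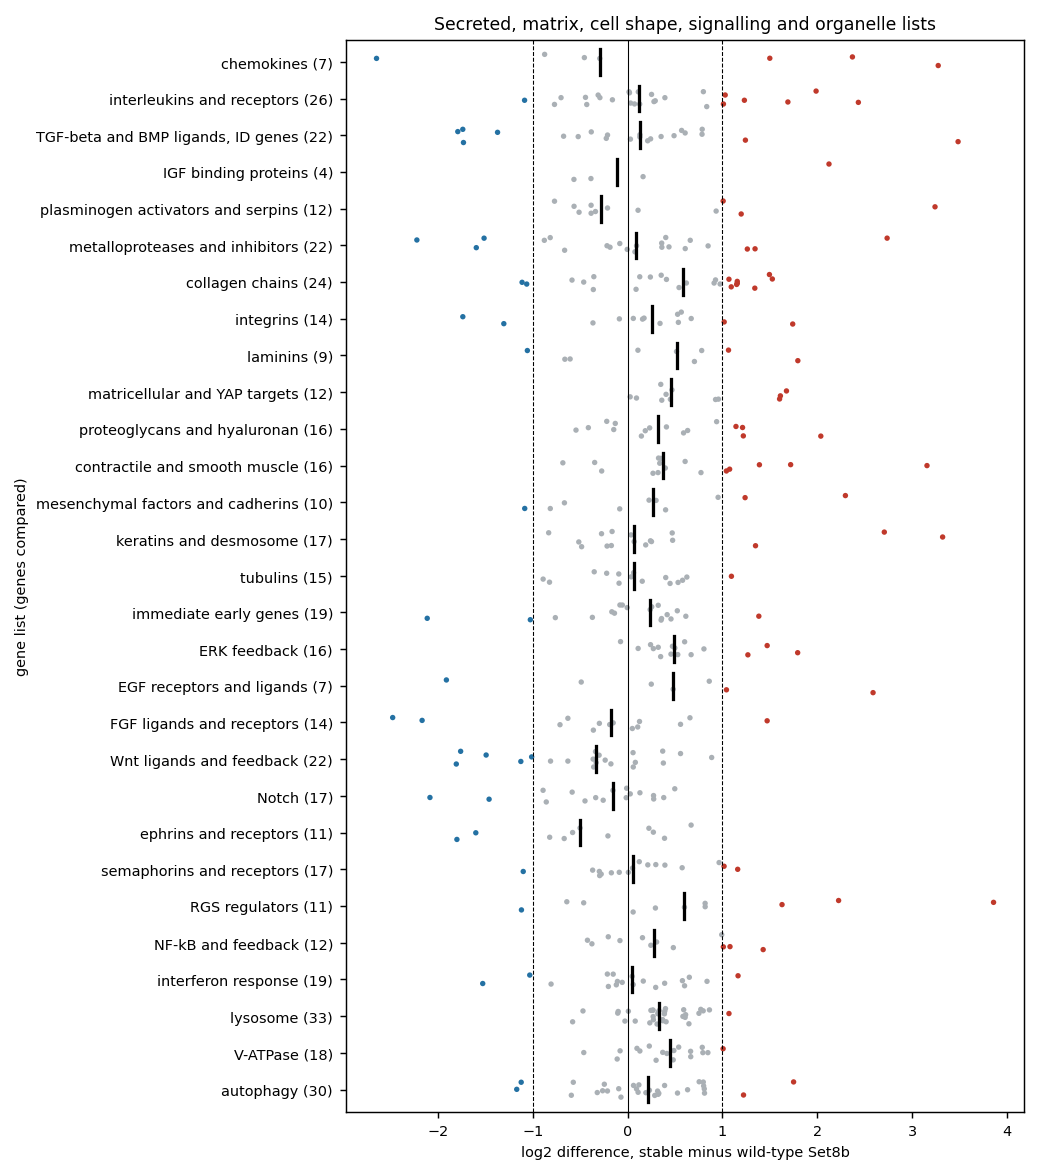
Log2 difference of stable minus wild-type Set8b (horizontal) for each compared gene of the secreted, matrix, cell shape, signalling and organelle lists (vertical, number of genes in brackets), red at least 2-fold higher, blue at least 2-fold lower, black bar the list median, dashed lines at 2-fold. All 12 matricellular and YAP targets lie above 0, while chemokines spread from CXCL14 at -2.65 to CXCL8, which was at least 3.22 and is drawn without the bound.

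Lysosome genes lay mostly above 0, nearly all by less than 2-fold. Of 33 lysosomal genes 28 lay above 0 and 1 was called, the sulfatase ARSA (299, 143 and 117), with a median of 0.33. NEU1, sialidase, read 1069, 626 and 411, PSAP, the saposin precursor, 8855, 5658 and 5067, and LIPA, acid lipase, 995, 591 and 689. Of 18 subunits of the V-ATPase, the proton pump of lysosomes, 15 lay above 0 with a median of 0.45, and ATP6V1H (762, 379 and 410.4) was called. In autophagy WIPI1 (776, 231 and 230.1) and ATG2A (917, 393 and 317) were called higher, ATG9A (399.7, 899 and 548) and ATG4C lower, and the list median was 0.21. For all genes 48.6% lay above 0.

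The CLEAR letters TCACGTGA, bound by the lysosomal regulator TFEB and the same on both strands, were in 4 of 24 lysosome and 2 of 12 V-ATPase promoters, against 1.98% of compared genes and 1.04% of all promoters. GAA, acid glucosidase, and the pump subunit ATP6V0D1 had the highest differences among those with the letters within 150 bases of the start, 0.59 and 0.66, and are shown with the letters in capitals.
GAA (chr17:80101431-80101580, plus strand): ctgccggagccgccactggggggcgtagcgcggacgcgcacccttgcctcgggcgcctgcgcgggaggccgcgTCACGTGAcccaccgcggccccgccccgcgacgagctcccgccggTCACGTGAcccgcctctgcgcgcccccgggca
ATP6V0D1 (chr16:67481158-67481307, minus strand): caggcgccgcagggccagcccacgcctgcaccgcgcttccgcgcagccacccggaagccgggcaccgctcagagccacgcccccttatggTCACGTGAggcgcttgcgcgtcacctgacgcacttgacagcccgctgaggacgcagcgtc

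Amino acid stress genes lay mostly below 0, and for several the wild-type array was the highest of the 3. Of 23 genes of the ATF4 list 18 lay below 0 and 4 were called, with a median of -0.44. CHAC1, which degrades glutathione, read 229, 744 and 371, the hormone FGF21 41.4, 231 and 149.7 (at most -2.21) and the cystine carrier SLC7A11 544, 1150.0 and 953. INHBE was at most -1.43. DDIT4, a brake on mTORC1, read 1028, 1934 and 869.8, below 2-fold. In serine synthesis PHGDH read 1246, 3237 and 2489 and PSAT1 1099, 2007 and 1887. Aminoacyl-tRNA synthetases did not follow as a group, with 8 of 15 above 0, RARS1 (1624, 578 and 803) called higher and AARS1 (1132, 2301 and 2005) called lower.

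Other metabolic and growth lists showed few called genes. None of 72 respiratory chain, 75 mitochondrial ribosome, 58 cytosolic ribosome, 41 proteasome or 61 splicing factor genes was called in either direction. Their medians were -0.08, -0.14, -0.03, -0.07 and -0.32. The cytosolic ribosome median was -0.47 with values as deposited, where the brightest genes of the arrays are not set to equal levels. Splicing factors lay below 0 in 47 of 61 cases, with SNRPA at -0.77 and SF3B2 at -0.65. Of 30 glycolysis and hypoxia genes 20 lay above 0 and 0 were called, with P4HA1 at 0.95 and SLC2A1 at 0.88. In lipid synthesis SREBF1, which drives fatty acid genes, read 397, 1189 and 1026, lower, and HMGCS1 was at 0.91. The oxidative stress list parted, with the glutathione ligase subunit GCLM (1535, 759 and 1127) and the reductase AKR1B10 (402, 98.3 and 85.4) called higher and SLC7A11 lower. Of the 37 ribosome biogenesis genes 25 lay above 0, and UBTF, a factor of ribosomal RNA transcription, read 381, 819.9 and 766 and was under 2-fold in the mean over its probe sets (-0.77).

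Agreement between probe sets and brightness set how far single genes can be read. Of 188 genes called higher with several probe sets, 154 had all of them above 0 and 64 had all of them past 2-fold, and of 193 called lower, 163 had all below 0 and 52 all past 2-fold. Within a gene, probe sets had an SD of 0.42 on the log2 scale over 5357 genes, which holds no spread between cultures. Calls were more frequent among dim genes, 259 higher and 227 lower among the dimmest 2946 genes against 58 and 85 among the brightest 2946. By chromosome the medians ran from -0.11 on chromosome 17 to 0.06 on chromosome 8. On chromosome 17, 15 of 683 genes were called higher and 41 lower, against 4.45% and 4.80% of all genes. Chromosome 16 was similar, with a median of -0.11, 16 of 536 genes called higher and 39 lower. On both chromosomes the share called higher lay below that of all genes, and the share called lower lay above it.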

How the data were processed

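RNA of 3 cultures was hybridised to Affymetrix arrays, per the labels. The deposited values are linear intensities of 54675 probe sets, and on each array their mean after trimming 2% at each end was 250.0, so the arrays had been scaled alike. The software and the detection calls are not given in the sources used here. Of these probe sets 62 controls were left out, the 3 arrays were quantile-normalized, values under the 20th percentile were raised to it (7.70) and put on the log2 scale. Probe sets were named from the platform annotation with symbols updated through RefSeq, 1801 with several symbols and 11721 with none staying out. The brightest probe set past the median stood for a gene. With 1 array per construct no test was run, and 2-fold was the threshold. Named genes are KMT5A, the 20 highest and 20 lowest, the 8 with wild-type Set8b highest and the 8 with it lowest, up to 6 of the largest differences of each of 86 lists with members against the list's median and the lists on H4K20 and CRL4-Cdt2. DDIT4, E2F1 and some other list members were chosen after their values were seen. Members and lists were chosen with earlier results of these data known. Python 3.11.15, numpy 2.4.6, pandas 2.3.3 and matplotlib 3.10.9 were used. Alternatives changed the normalization, floor, filter, choice of probe set and threshold.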

Additional observations from a re-analysis of the deposited data

Results flagged for a closer look

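Probe sets without a gene symbol stayed out of the comparison. Of 2773 that passed the limit, 148 were at least 2-fold higher with stable than with wild-type Set8b and 144 were at least 2-fold lower. Among the genes compared these shares were 4.45% and 4.80%. The 3 highest were named for a signal in data outside the comparison, above the level on the vector array. Probe set 1561754_at read 406, 52.2 and 69.7 with stable Set8b, wild-type Set8b and the vector, a log2 difference of 2.96. Probe set 205239_at read 721, 113 and 148, a difference of 2.68. Probe set 215907_at read 276, 33.8 and 40.7, a difference of at least 2.47 with the dim side set to 50. What these probe sets read was not analysed here.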

How the results depend on the processing

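The counts of genes at least 2-fold higher and lower, 524 and 566, moved most with the filter and the threshold. Without a filter they were 1928 and 1895, over the brightest 25% of probe sets 193 and 258, at 1.5-fold 1518 and 1691, and at 3-fold 157 and 134. The other 8 settings gave 478 to 565 higher and 508 to 576 lower. No named gene past 2-fold changed direction under a setting that gave it a value. Of 2639 pairs of a named gene and a setting, 45 lost the 2-fold call. That total includes named genes under 2-fold, which had no call to lose. No call was lost without a filter, without a floor or with the floor at the 40th percentile (281 genes each). The same held over the brightest 25% of probe sets (188 genes). The filter does not alter which probe set is brightest, and the floor acts only on dim signals. These pairs therefore had little room to change. With the mean over probe sets, 21 calls were lost. Of 30 lists with 75% or more of at least 5 members on 1 side of 0, 29 kept the side of their median. The osteoblast genes changed from 0.47 to -0.32 without probe sets ending in _x_at or _s_at, which left 4 genes. The median of all genes shifted by at most 0.02 under any scaling. No paired analysis was possible because each construct had 1 array.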
